A study of Mus musculus with 28 samples.

Results

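The genes described are the 10 that carry urea synthesis and the feeding of glutamine nitrogen into it in mouse liver: Cps1, Otc, Ass1, Asl, Arg1, Nags, Slc25a15, Slc25a13, Gls2 and Glud1. They were taken as the rows of the count table whose Ensembl identifiers map to these symbols, which gave 10 of 49585 counted features, and all 10 were among the 21583 genes abundant enough to be tested. With the main scaling of the libraries (TMM), 8 of the 10 were higher in male SIRT6-tg than in male WT livers. The rises were from 1.22-fold (Nags) to 1.58-fold (Asl), and 9.68% of all genes tested were higher. With scaling by library size alone or to secreted hepatocyte proteins, 0 of the 10 passed the test. In female SIRT6-tg livers none of the 10 passed the test in either direction, where 0.0278% of all genes tested did. As a share of all counted reads the male groups were closer: the 10 genes together took 0.957% ± 0.105 (SD, n = 7) of all counted reads in male SIRT6-tg livers and 0.908% ± 0.0789 (SD, n = 7) in male WT livers, and those ranges overlapped. Much of that sum is Cps1, which was not called and alone took 0.374% in male SIRT6-tg and 0.384% in male WT livers.

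Liver disposes of ammonia mainly by making urea, a pathway that starts in the mitochondria of periportal hepatocytes and ends in the cytosol. Glutaminase and glutamate dehydrogenase release ammonia from glutamine and glutamate, carbamoyl phosphate synthetase captures it, and the following enzymes pass the nitrogen through citrulline, argininosuccinate and arginine to urea. Downstream along the sinusoid, a narrow rim of pericentral hepatocytes takes up the remaining ammonia by glutamine synthesis, so that liver both breaks down and makes glutamine.

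Livers came from C57BL/6JOlaHsd mice aged 5 to 7 months that had been fasted for 4 h, with 7 libraries from each sex of each genotype, WT and SIRT6-tg, which makes 4 groups. SIRT6-tg mice overexpress the deacylase SIRT6 and were of a single transgenic line, with WT littermates as controls, so a result of the line's insertion site and a result of SIRT6 cannot be told apart. Total counts per library ranged from 18758863 to 35393069. Sirt6 itself, the check of the labels, stood at 2.73 ± 0.511 CPM (reads of a gene per 1000000 reads counted, TMM-scaled) in male WT, 281 ± 55.2 in male SIRT6-tg, 2.88 ± 1.55 in female WT and 30.2 ± 12.5 in female SIRT6-tg livers (mean ± SD, n = 7 each). Among SIRT6-tg livers, Sirt6 was thus higher in males than in females by 3.22 on the log2 scale (SE 0.25), and sex and transgene level cannot be told apart in any difference between the sexes below. CPM values here are counts scaled by library size and TMM factors, which assume that most genes do not change; log2 fold changes are from edgeR's quasi-likelihood test on the same scale, and adjusted p-values are Benjamini-Hochberg values over all genes tested, with a gene called below 0.05.

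Per kilobase of exon, the order of the 10 genes was nearly the same in the 4 groups. Cps1, the mitochondrial synthetase that makes carbamoyl phosphate, was the most abundant, with a median of 658 CPM per kb in male WT livers, followed by Arg1 at 455, Ass1 at 386 and Glud1 at 186. Otc at 110, Gls2 at 98.0 and Asl at 96.0 CPM per kb had overlapping ranges in male WT livers and exchanged places between groups. The mitochondrial carriers Slc25a13 and Slc25a15 followed at 69.5 and 54.97 CPM per kb. Nags, whose product N-acetylglutamate is the obligatory activator of carbamoyl phosphate synthetase, was lowest in every group and in every library, at 17.99 CPM per kb in male WT livers. Cps1 and Arg1 overlapped in range in all 4 groups, and so did Arg1 and Ass1 in every group but female WT.

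RefSeq lists promoter windows on GRCm38.p6 for 6 of the 10 genes, 7 windows in all, which run from 250 bases before to 50 bases after the start site; Cps1, Asl, Arg1 and Gls2 have none listed. Below are those of Otc and Slc25a13, which were called higher in male SIRT6-tg livers, and of Slc25a15, which was not, each 5′ to 3′ on the strand of its gene, with capitals for the only match to a searched motif. The windows lie at chrX:10252055-10252354 on the plus strand for Otc, chr6:6217124-6217423 on the minus strand for Slc25a13 and chr8:22398572-22398871 on the minus strand for the upstream start site of Slc25a15.
Otc: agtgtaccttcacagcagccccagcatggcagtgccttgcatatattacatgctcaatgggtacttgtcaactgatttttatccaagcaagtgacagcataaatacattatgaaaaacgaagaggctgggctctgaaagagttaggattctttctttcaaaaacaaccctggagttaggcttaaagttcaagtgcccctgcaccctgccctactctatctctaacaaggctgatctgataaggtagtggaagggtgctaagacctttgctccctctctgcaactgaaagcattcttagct
Slc25a13: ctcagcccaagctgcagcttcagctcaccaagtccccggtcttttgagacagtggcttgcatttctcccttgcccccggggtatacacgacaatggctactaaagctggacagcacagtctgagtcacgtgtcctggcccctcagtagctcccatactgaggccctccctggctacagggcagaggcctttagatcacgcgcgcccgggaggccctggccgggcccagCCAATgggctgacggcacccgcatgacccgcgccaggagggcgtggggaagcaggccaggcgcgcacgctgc
Slc25a15: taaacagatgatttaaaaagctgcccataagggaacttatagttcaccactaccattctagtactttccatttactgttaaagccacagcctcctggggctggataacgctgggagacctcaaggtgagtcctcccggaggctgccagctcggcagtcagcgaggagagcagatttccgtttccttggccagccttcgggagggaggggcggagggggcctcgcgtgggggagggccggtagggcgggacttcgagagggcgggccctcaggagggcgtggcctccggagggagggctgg
Both strands were searched for a cAMP response element (TGACGTCA), a C/EBP site (TTGCNNAA), an HNF4 site (CAAAGTCCA), a TATA box (TATAAA) and a CCAAT box (CCAAT). Only the CCAAT box of Slc25a13 was found, with its first base at position -22 from the start site, among the 7 windows of these genes. Of 32851 such windows in the mouse genome, 37.4% hold a CCAAT box, 13.6% a TATA box, 10.8% the C/EBP letters, 1.79% the cAMP response element and 0.475% the HNF4 letters. The window of Otc had 44.3% G and C, against 52.7% for the median window, while those of Slc25a13 and Slc25a15 had 65.0% and 60.7%.

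**Figure D1:**
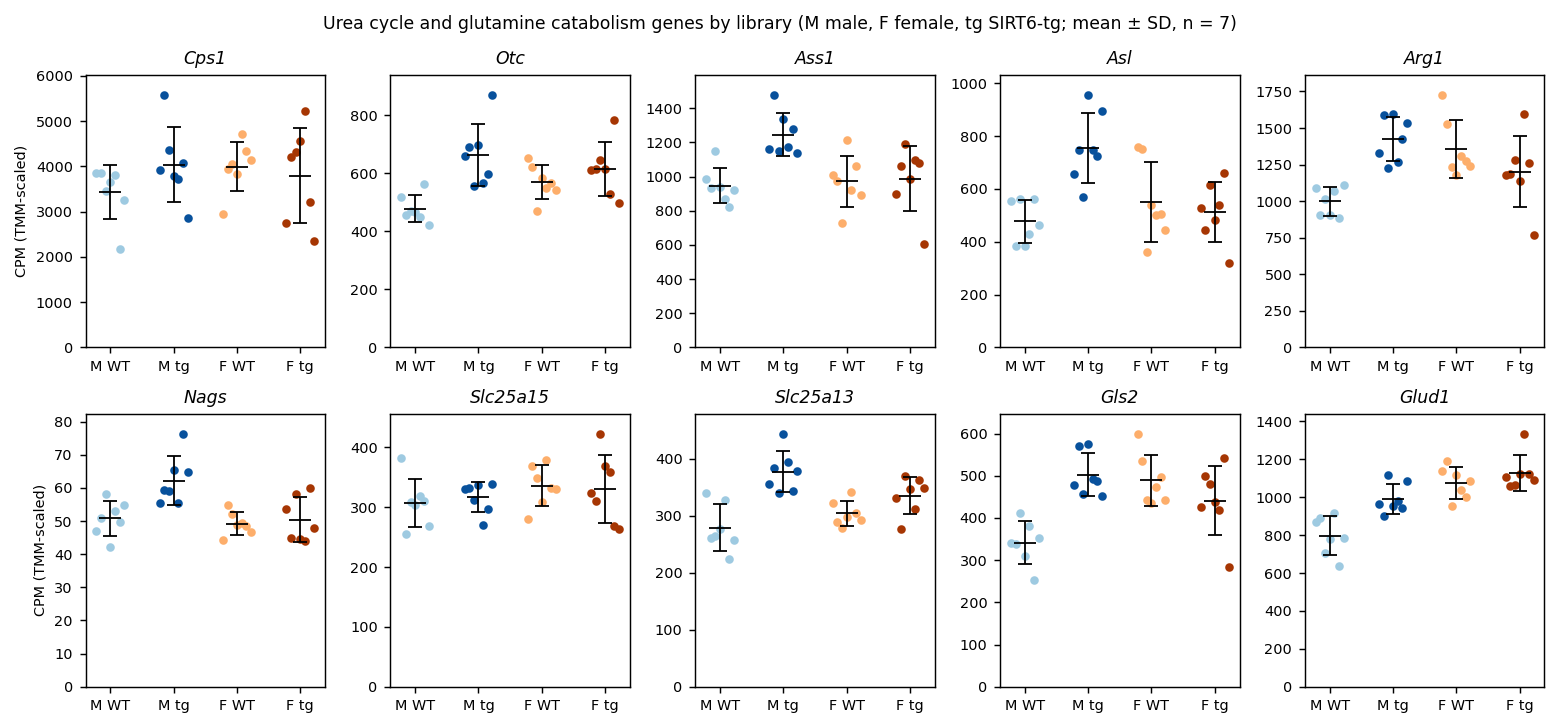
CPM (TMM-scaled, y axis from 0) of the 10 genes in each of the 28 libraries, by sex and genotype; points are livers and bars the mean ± SD of 7. Male SIRT6-tg points of Asl, Arg1 and Gls2 lie wholly above those of male WT, whereas female WT and female SIRT6-tg points overlap for every gene.

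In males, 8 of the 10 genes were higher in SIRT6-tg than in WT livers and 0 were lower, where 9.68% of all genes tested were higher. Their median log2 fold change was 0.42, beside 0.06 for all genes tested. On the TMM scale, all 7 male SIRT6-tg livers lay above all 7 male WT livers for 3 of the 10 genes, where 2.60% of all genes tested did so. Gls2 is among the genes that the study displayed for amino acid catabolism, chosen on these same libraries, so its rise here is not independent evidence.

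The enzymes that lead glutamine nitrogen into the cycle rose together in males. Gls2 (ENSMUSG00000044005.13, chr10:128194457-128210004, plus strand, GRCm38), the liver-type glutaminase, ranged from 253 to 412 CPM with a median of 341 in male WT livers and from 453 to 576 with a median of 487 in male SIRT6-tg livers. No male SIRT6-tg liver fell into the WT range. The log2 fold change was 0.56 (SE 0.12, edgeR adjusted p = 0.00067). Exons of Gls2 overlap those of the opposite-strand gene Spryd4 over 97 bases, 2.79% of its exon length, and the strand setting of the counting is not given in the sources used here. Glud1 (ENSMUSG00000021794.15, chr14:34310727-34345265, plus strand), the glutamate dehydrogenase of the mitochondrial matrix, ranged from 637 to 914 CPM with a median of 784 in male WT and from 901 to 1117 with a median of 966 in male SIRT6-tg livers. A single transgenic liver lay inside the WT range, just under its top. Its log2 fold change was 0.32 (SE 0.09, edgeR adjusted p = 0.0074).

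Of the genes that act at the mitochondrial entry, Nags and Otc rose and Cps1 did not pass the test. Cps1 (ENSMUSG00000025991.8, chr1:67123026-67231259, plus strand) ranged from 2169 to 3854 CPM with a median of 3653 in male WT and from 2859 to 5583 with a median of 3910 in male SIRT6-tg livers. The groups overlapped widely, with 4 of 7 transgenic livers above every WT liver and a single low WT liver. The log2 fold change of Cps1 was 0.23 (SE 0.16, 95% interval -0.09 to 0.55, edgeR adjusted p = 0.32). Nags (ENSMUSG00000048217.11, chr11:102145513-102149477, plus strand) ranged from 42.2 to 58.3 CPM with a median of 51.1 in male WT and from 55.4 to 76.3 with a median of 59.3 in male SIRT6-tg livers. Here 5 of 7 transgenic livers were above the WT range. The change of 0.29 (SE 0.09, edgeR adjusted p = 0.021) was called in 10 of the 14 fits that left out a male liver; without male WT replicate 1 or 4 or male SIRT6-tg replicate 4 or 6 it was 0.25, 0.22, 0.27 and 0.22 (edgeR adjusted p = 0.063, 0.12, 0.0502 and 0.076). Exons of Nags share 443 bases, 15.6% of their length, with the antisense gene Gm11586. Otc (ENSMUSG00000031173.13, chrX:10252305-10321024, plus strand), which joins carbamoyl phosphate to ornithine, ranged from 423 to 564 CPM with a median of 468 in male WT and from 557 to 871 with a median of 661 in male SIRT6-tg livers. The lowest transgenic liver fell just below the highest WT liver and the other 6 were above it. Otc changed by 0.47 (SE 0.10, edgeR adjusted p = 0.0013).

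Each of the 3 cytosolic enzymes rose in males. Ass1 (ENSMUSG00000076441.9, chr2:31470207-31520672, plus strand), which condenses citrulline with aspartate, ranged from 823 to 1149 CPM with a median of 933 in male WT and from 1136 to 1479 with a median of 1173 in male SIRT6-tg livers. The groups touched at a single transgenic liver. The log2 fold change of Ass1 was 0.40 (SE 0.12, edgeR adjusted p = 0.016). Asl (ENSMUSG00000025533.15, chr5:130011258-130029247, minus strand), which splits argininosuccinate into arginine and fumarate, ranged from 385 to 563 CPM with a median of 464 in male WT and from 569 to 957 with a median of 748 in male SIRT6-tg livers. Every transgenic liver was above every WT liver, and the spread among transgenic livers was wide. This was the biggest change of the 10 genes in males, at 0.66 (SE 0.16, edgeR adjusted p = 0.0028). Arg1 (ENSMUSG00000019987.8, chr10:24915221-24927484, minus strand), the arginase that releases urea, ranged from 887 to 1114 CPM with a median of 1015 in male WT and from 1228 to 1595 with a median of 1425 in male SIRT6-tg livers. Those ranges were well apart. Arg1 changed by 0.51 (SE 0.12, edgeR adjusted p = 0.0015).

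The mitochondrial carriers differed from each other. Slc25a13 (ENSMUSG00000015112.15, chr6:6041218-6217173, minus strand), the aspartate-glutamate carrier citrin that supplies cytosolic aspartate to the cycle, ranged from 224 to 340 CPM with a median of 264 in male WT and from 340 to 443 with a median of 379 in male SIRT6-tg livers. Nearly all transgenic livers were above the WT range. The log2 fold change was 0.44 (SE 0.09, edgeR adjusted p = 0.00068). Slc25a15 (ENSMUSG00000031482.9, chr8:22375551-22398597, minus strand), the ornithine-citrulline carrier that closes the cycle across the inner membrane, ranged from 256 to 382 CPM with a median of 309 in male WT and from 270 to 339 with a median of 330 in male SIRT6-tg livers. The transgenic livers lay wholly inside the WT range. Its log2 fold change was 0.05 (SE 0.10, 95% interval -0.16 to 0.26, edgeR adjusted p = 0.80). Set against the mean of the 10 genes within each library, Slc25a15 was lower in male SIRT6-tg than in male WT livers by -0.34 on the log2 scale (SE 0.07) with no overlap of the ranges, which is given as a description. Most genes in that mean rose, so a gene that did not change comes out lower against it.

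Whether these rises were called depended on how the libraries were scaled. TMM factors were 1.06 to 1.17 in male WT and 0.821 to 0.993 in male SIRT6-tg livers. With library size alone, 0 of 10 genes were called in males and their median log2 fold change was 0.13, while the median of all genes moved from 0.06 to -0.22. With scaling to 15 secreted hepatocyte proteins, 0 of 10 were called, the median was 0.08 and that of all genes -0.27, and the values of Cps1, Nags, Slc25a15 and Glud1 were below 0. Upper-quartile scaling called 5 and RLE size factors 7. Relative to the median of all genes, the median of the 10 genes was higher by 0.36 with TMM, 0.36 with RLE, 0.36 with upper-quartile scaling, 0.35 with library size alone and 0.35 with the secreted proteins. A change of scaling shifts all genes by nearly the same amount, so these values agree by construction and are not separate support. Among all genes called, the higher share was 46.8% with TMM, 35.7% with RLE, 26.2% with upper-quartile scaling, 4.89% with library size alone and 3.36% with the secreted proteins.

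**Figure D2:**
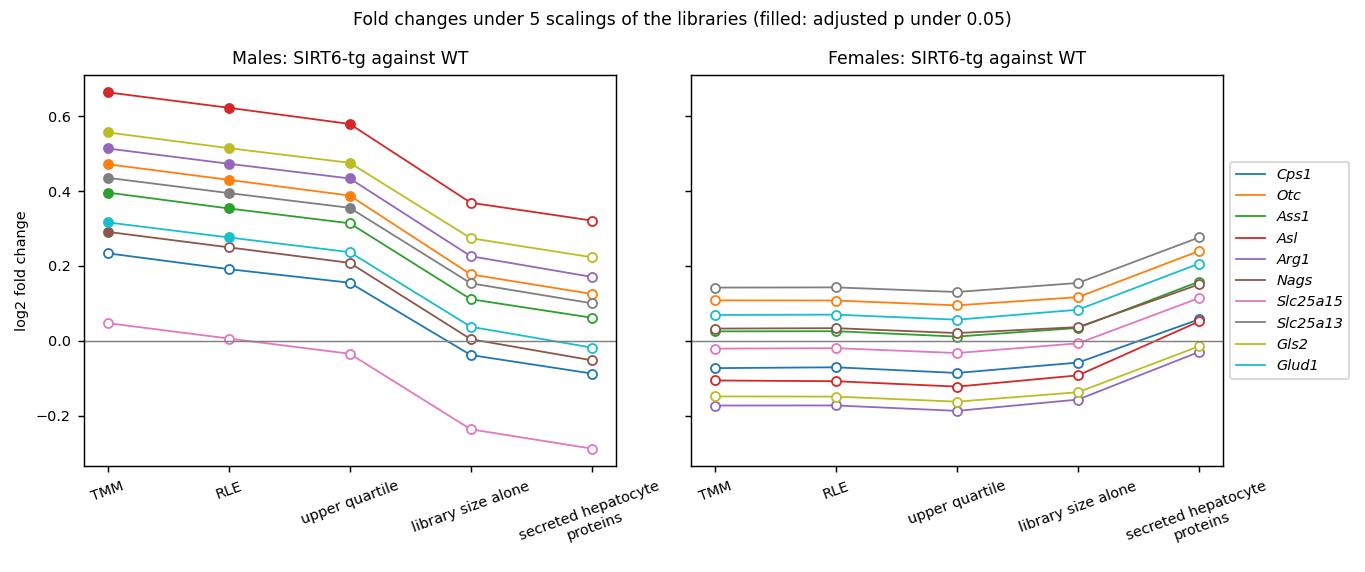
Log2 fold change (y axis) of the 10 genes, SIRT6-tg against WT, under 5 scalings of the libraries (x axis), in males at left and females at right; filled points have an edgeR adjusted p under 0.05. In males the lines run in parallel and fall together, from a median of 0.42 with TMM to 0.08 with the secreted hepatocyte proteins, where no point is filled. Scaling shifts all genes nearly alike, so the parallel course follows by construction.

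Markers of some other cell types moved with genotype in males. All 9 T cell markers, all 11 macrophage markers and all 6 stellate cell markers were lower in male SIRT6-tg than in male WT livers. Of 5 sinusoidal endothelium markers 1 was lower, and 0 of 5 cholangiocyte and 0 of 3 blood markers were called. Summed T cell markers ranged from 16.97 to 46.4 CPM in male WT and from 5.84 to 8.75 in male SIRT6-tg livers, macrophage markers from 507 to 1621 and from 417 to 709, and stellate cell markers from 168 to 277 and from 87.0 to 111. Summed secreted hepatocyte proteins ranged from 134031 to 172229 CPM in male WT and from 158818 to 217320 in male SIRT6-tg livers, with 8 of 15 called higher and a median log2 fold change of 0.37. Of the periportal markers 2 of 6 and of the pericentral markers 1 of 6 were higher. Over all genes tested, 9.68% were higher and 11.0% lower in this comparison. No marker of these lists was at 0 in every library of a group. Their part in the rise of the urea cycle genes was not tested, and in bulk liver fewer cells of a type and less RNA per cell cannot be told apart.

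Female livers showed no change that passed the test. Of the 10 genes, 0 were called by edgeR, where 0.0278% of all genes tested were called, 0 had an unadjusted p under 0.05, where 5.62% of all genes had one, and DESeq2 also called 0. The log2 fold changes ran from -0.17 (Arg1) to 0.14 (Slc25a13) with a median of 0.00. For Gls2, female WT livers ranged from 435 to 599 CPM with a median of 474 and female SIRT6-tg livers from 284 to 542 with a median of 437. Those ranges overlapped, and the 95% interval of the log2 fold change was -0.38 to 0.09. Arg1 ranged from 1176 to 1728 CPM with a median of 1274 in female WT and from 769 to 1599 with a median of 1183 in female SIRT6-tg livers, and its interval was -0.41 to 0.06. For Asl the values were 360 to 760 CPM with a median of 505 in female WT and 320 to 662 with a median of 526 in female SIRT6-tg livers, with an interval of -0.43 to 0.22. In each of these 3 genes the lowest liver was a SIRT6-tg liver.

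Among the other genes in females, Cps1 ranged from 2951 to 4709 CPM in WT and from 2344 to 5217 in SIRT6-tg livers (interval of the log2 fold change -0.39 to 0.25). Otc ranged from 472 to 654 and from 499 to 785 (-0.10 to 0.32), and Ass1 from 730 to 1214 and from 605 to 1192 (-0.22 to 0.27). Glud1 ranged from 956 to 1194 and from 1057 to 1334 (-0.10 to 0.24). In all of these the groups overlapped. Nags ranged from 44.2 to 54.9 and from 43.9 to 60.1 (-0.15 to 0.22), Slc25a15 from 280.2 to 379 and from 263 to 422 (-0.23 to 0.19), and Slc25a13 from 278 to 342 and from 277 to 370 (-0.04 to 0.33). For all 8 genes called in males, the female interval lay below the male value. That leaves out the error of the male value, and of these only Asl, Arg1 and Gls2 passed the direct test given below. Female SIRT6-tg replicate 7 was the lowest of its group for 7 of the 10 genes, and without it the log2 fold changes ran from -0.09 to 0.15 with 0 called.

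The difference between the sexes was tested directly. Gls2 responded more in males by 0.71 (SE 0.16, edgeR adjusted p = 0.0083), Arg1 by 0.69 (SE 0.16, edgeR adjusted p = 0.0101) and Asl by 0.77 (SE 0.22, edgeR adjusted p = 0.039). These were 3 of 10 genes, where 1.20% of all genes tested had a higher response in males. The differences of the other 7 genes ran from 0.07 (Slc25a15) to 0.37 (Ass1) and did not pass the test. Arg1 and Gls2 were called in 7 of 9 alternatives and in all 28 fits that left out a library; library size alone and the secreted protein scaling gave no call for any of the 10. Asl was called in 4 of 9 alternatives and 15 of 28 fits, and its values without a library ran from 0.67 to 0.85 (edgeR adjusted p from 0.019 to 0.0896). It lost its call without male WT replicate 2, 4, 5 or 7, male SIRT6-tg replicate 4, 5 or 7, female WT replicate 1, 2 or 4, or female SIRT6-tg replicate 2, 4 or 7.

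**Figure D3:**
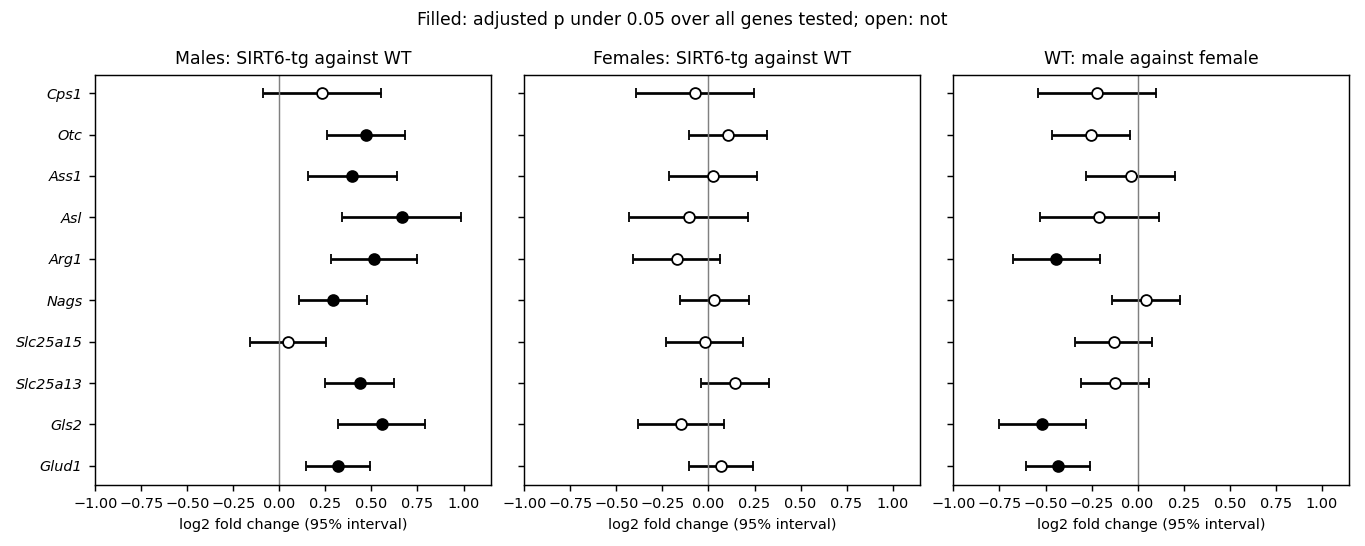
Log2 fold changes with 95% intervals (x axis) of the 10 genes (y axis) for male SIRT6-tg against WT, female SIRT6-tg against WT, and male against female WT; filled points have an edgeR adjusted p under 0.05. In males 8 points are filled and lie right of 0, in females none is filled, and between WT livers Arg1, Gls2 and Glud1 lie left of 0.

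WT livers themselves differed by sex. Glud1, Gls2 and Arg1 were lower in male than in female WT livers, by -0.43 (SE 0.09, edgeR adjusted p = 0.00073), -0.52 (SE 0.12, edgeR adjusted p = 0.0025) and -0.44 (SE 0.12, edgeR adjusted p = 0.0095). These were 3 of 10 genes, where 5.71% of all genes tested were lower in males. For the same 3 genes every male WT liver lay below every female WT liver, where 1.64% of all genes did so. The other 7 genes ran from -0.25 (Otc) to 0.05 (Nags) and did not pass the test. With scaling to the secreted proteins Gls2, Glud1 and Arg1 were no longer called and Nags alone was, at 0.33; Gls2 and Glud1 were called in the other 9 alternatives, and Arg1 in 8, since it also lost its call with library size alone. Otc was called in 1 of 10 alternatives. Relative to the median of all genes, the 10 genes had a median difference of -0.21 with TMM and -0.20 with the secreted protein scaling. Those values too agree by construction, since scaling shifts all genes nearly alike.

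Male SIRT6-tg livers, set against female SIRT6-tg livers, had more Asl, by 0.56 (SE 0.16, edgeR adjusted p = 0.0104), more Nags, by 0.30 (SE 0.09, edgeR adjusted p = 0.015), and more Ass1, by 0.33 (SE 0.12, edgeR adjusted p = 0.0399). These were 3 of 10 genes, where 12.9% of all genes tested were higher. Asl was called in all 10 alternatives, Nags in 6 and Ass1 in 3. Arg1 and Gls2, which responded more in males, stood at 0.25 and 0.19 here and were not called (edgeR adjusted p = 0.12 and 0.25). Glud1 stood at -0.18 (edgeR adjusted p = 0.12) and was called lower in males in 4 of 10 alternatives, those with upper-quartile, library size and secreted protein scaling and DESeq2, with values over the 10 from -0.36 to -0.18. Ass1 lost its call in 6 of 14 fits that left out a library, with values from 0.25 to 0.39. This comparison, the male genotype comparison and the WT comparison share libraries, so their values stand side by side and are not independent.

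Ratios within a library do not depend on the scaling between libraries. Since liver also makes glutamine, Gls2 was set against Glul, glutamine synthetase; Arg1 was set against Arg2, the mitochondrial arginase, and Asl against Cps1. These pairs were chosen after the values were seen, and 9 exact two-sided permutation tests over libraries were run, whose smallest possible p within a sex is 0.000583. The adjustment covers these 9 tests but not the choice of pairs, so the p-values are descriptions and not independent support. Between the sexes, genotypes were permuted exactly inside each sex.

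Per kilobase, the log2 ratio of Gls2 to Glul was -1.61 ± 0.196 in male WT and -0.84 ± 0.0628 in male SIRT6-tg livers (mean ± SD, n = 7 each). All male transgenic livers lay above all male WT livers. The difference was 0.78 (SE 0.08, exact p = 0.000583, adjusted over the 9 tests 0.00262) in males and -0.32 (SE 0.23, exact p = 0.200, adjusted 0.339) in females. Male minus female, it was 1.098 (exact p = 0.000129, adjusted 0.00116, for no effect in either sex). A single female WT liver stood high in this ratio, at 0.19, where the other female WT livers lay below 0. The ratio of Arg1 to Arg2 rose in males by 1.02 (SE 0.35, exact p = 0.0134, adjusted 0.0402) and changed by 0.31 (SE 0.39, exact p = 0.421) in females; the difference between the sexes did not pass (0.71, exact p = 0.231). Arg2 rests on 2 to 16 reads per library, so counting error alone is large in that ratio. For Asl over Cps1 the male difference was 0.43 (SE 0.25, exact p = 0.112).

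**Figure D4:**
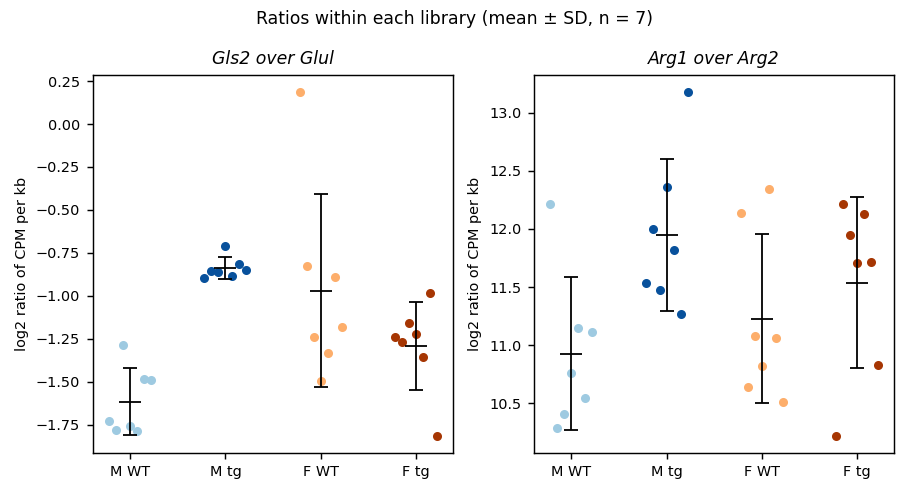
Log2 ratios of CPM per kb (y axis) of Gls2 to Glul and Arg1 to Arg2 in each library, by sex and genotype (x axis); bars are the mean ± SD of 7. For Gls2 over Glul all male SIRT6-tg points lie above all male WT points, with means of -0.84 against -1.61, and the female groups overlap.

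A further 42 genes that supply, drain or regulate the cycle were examined, all of which were tested. In males 12 were higher and 4 lower, where 9.68% of all genes tested were higher and 11.0% lower. Their median log2 fold change in males was 0.24. In females 0 were called by edgeR or by DESeq2, where edgeR called 0.0278% of all genes tested. An unadjusted edgeR p under 0.05 was found for 3 in females, where 5.62% of all genes had one. Among 9 enzymes of glutamine and glutamate, 3 rose and 0 fell. Nit2, an omega-amidase, rose by 0.53 (SE 0.10, edgeR adjusted p = 0.00028), the mitochondrial aspartate aminotransferase Got2 by 0.36 (SE 0.07, edgeR adjusted p = 0.00022) and the alanine aminotransferase Gpt by 0.44 (SE 0.12, edgeR adjusted p = 0.0081). Glul was at 676 to 1258 CPM in male WT and 781 to 987 in male SIRT6-tg livers, with a log2 fold change of -0.23 (SE 0.13, edgeR adjusted p = 0.23).

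Of 13 transporters, 0 rose and 2 fell in males, where 9.68% of all genes tested were higher and 11.0% lower. The 2 were Slc1a5, a glutamine transporter, at -1.13 (SE 0.16, edgeR adjusted p = 5.69e-06), and Rhbg, an ammonia channel, at -1.18 (SE 0.26, edgeR adjusted p = 0.0015). Both were low, at mean levels of 4.99 and 4.67 CPM in male WT livers, and the response of Slc1a5 differed between the sexes (male minus female -0.98, SE 0.23, edgeR adjusted p = 0.0096). Slc25a2, the second ornithine carrier and the counterpart of Slc25a15, had 1 to 10 reads per library and no call. The 6 genes of arginine and ornithine side reactions gave 2 that rose and 2 that fell. Aldh18a1, which starts proline and ornithine synthesis from glutamate, fell by 1.28 (SE 0.21, edgeR adjusted p = 4.56e-05), and Gatm, of creatine synthesis, by 0.43 (SE 0.15, edgeR adjusted p = 0.033). Odc1, of polyamine synthesis, rose by 0.36 (SE 0.11, edgeR adjusted p = 0.019) and Agmat, agmatinase, by 0.33 (SE 0.12, edgeR adjusted p = 0.0496).

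Partners that feed the cycle with bicarbonate or take up its fumarate rose in 3 of 4 cases in males. Of all genes tested, 9.68% were higher in that comparison and 11.0% lower. Car5a, the mitochondrial carbonic anhydrase that supplies bicarbonate to Cps1, rose by 0.61 (SE 0.12, edgeR adjusted p = 0.00028), with no overlap between the male groups. The malate dehydrogenases Mdh1 and Mdh2 rose by 0.46 (SE 0.15, edgeR adjusted p = 0.025) and 0.29 (SE 0.09, edgeR adjusted p = 0.013). Fumarase Fh1 did not pass in males (0.37, SE 0.14, edgeR adjusted p = 0.062), but its response differed between the sexes by 0.66 (SE 0.20, edgeR adjusted p = 0.047). In females the log2 fold changes of these 4 partners ran from -0.29 to 0.07 with 0 called, so the difference holds female values too. Of 10 regulators, 4 rose and 0 fell. Cebpa, a transcription factor of hepatocytes, rose by 0.47 (SE 0.09, edgeR adjusted p = 0.00013) and differed between the sexes by 0.47 (SE 0.12, edgeR adjusted p = 0.018). The glucagon receptor Gcgr rose by 0.48 (SE 0.11, edgeR adjusted p = 0.0021), and the mitochondrial deacylases Sirt3 and Sirt5 by 0.35 (SE 0.08, edgeR adjusted p = 0.0015) and 0.49 (SE 0.18, edgeR adjusted p = 0.048). In males without WT replicate 4, the 42 genes gave 10 calls in place of 16.

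**Figure D5:**
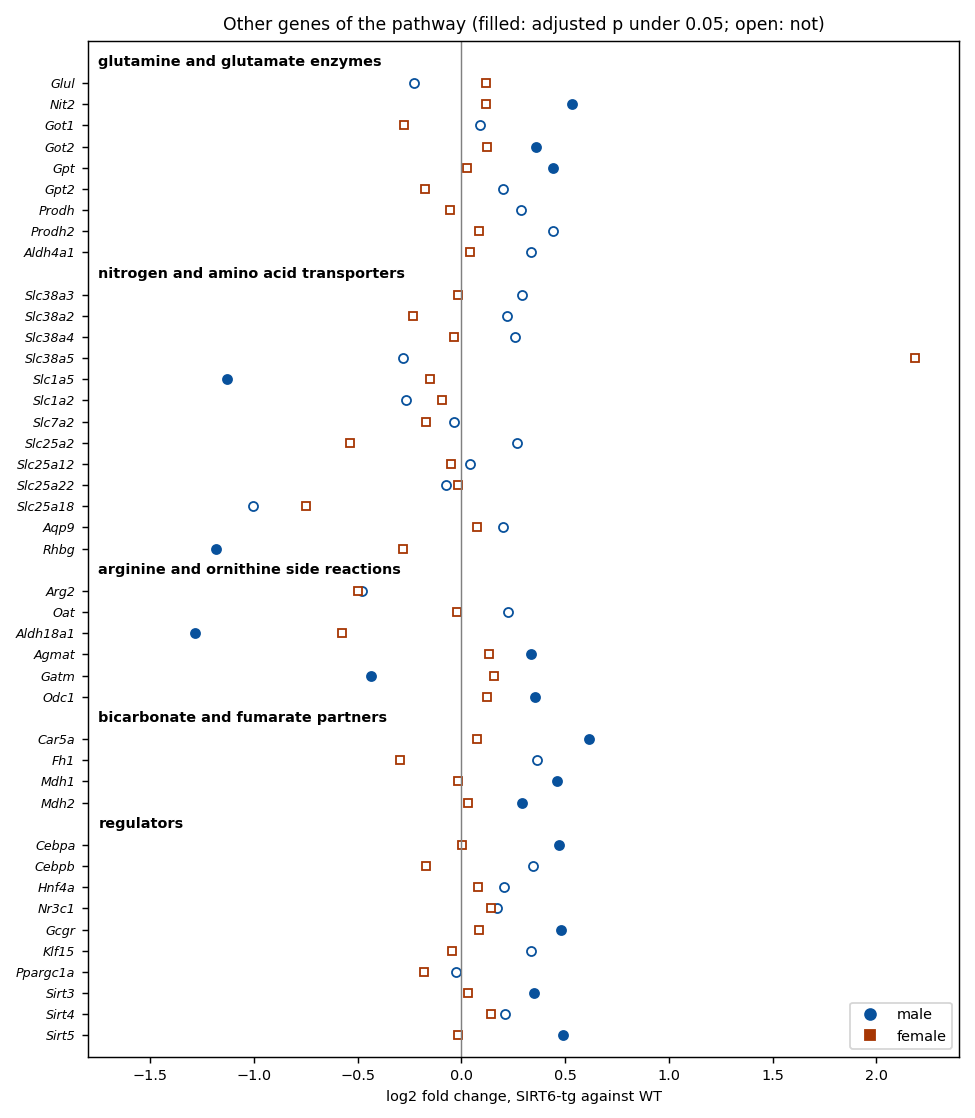
Log2 fold change (x axis) of the 42 further genes of the pathway, SIRT6-tg against WT, in males (circles) and females (squares), grouped by role (y axis); filled symbols have an edgeR adjusted p under 0.05. Of the male circles 16 are filled, 12 to the right of 0 and 4 to the left, and no female square is filled.

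Across the 28 libraries, the log2 CPM of the 10 genes had a median pairwise Pearson correlation of 0.46 over 45 pairs (-0.10 to 0.86), which fell to 0.26 (-0.30 to 0.74) when each value was taken as a deviation from its group mean. Libraries share depth and scaling, so these are descriptions. Of 7754 other genes with a mean of at least 10 CPM, the 5 whose log2 CPM most resembled the mean of the 10 genes over 28 libraries were Amdhd1 (r = 0.87), Paics (r = 0.87), Mccc2 (r = 0.83), Adssl1 (r = 0.83) and Ndufs1 (r = 0.82). Correlations of their deviations from the group means were 0.68, 0.65, 0.60, 0.68 and 0.66.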

How the data were processed

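RNA-seq libraries were made from 28 livers. Per the study's methods, the authors prepared them with the NEBNext Ultra kit, sequenced them single-end on an Illumina HiSeq instrument, aligned reads with STAR 2.5.0a to mm10 with Gencode vM12, kept uniquely mapped reads and counted them per gene with HTSeq-count; the deposited values are raw counts. Strand setting and the transgene's promoter are not given in the sources used here. Antisense or overlapping genes can therefore share reads.

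Groups came from the sample labels. Symbols, GRCm38 positions and exon lengths came from Gencode vM21 by Ensembl identifier; 49326 of 49585 features had a symbol. The 21583 genes averaging 0.5 or more normalized counts were tested with edgeR 4.0.16 (R 4.3.3), using TMM factors and robust quasi-likelihood F-tests on 1 fit of all 28 libraries, with Benjamini-Hochberg adjustment and a threshold of 0.05. SEs were taken from the F statistic. CPM means used TMM-scaled library sizes. Levels are compared between genes only as CPM per kb. The tests were checked on simulated data with no shift in scaling between the groups. That check therefore does not bear on the choice of scaling. The depth of 18758863 to 35393069 counts per library left each of the 10 genes with over 1000 counts in every library. Libraries within groups differed by more than sampling noise. All 28 libraries matched their sex label.

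Members, gene lists, motifs and the rule for named genes were chosen with earlier results of these data known. From each list of other pathway genes, those past the threshold in females or between the sexes were named, with up to 3 in each direction with the lowest adjusted p in males, the 2 with the lowest male p where fewer than 2 passed, and Glul, Arg2 and Slc25a2 always. Sirt5 was added after its value was seen. A gene of these lists is not reported here. Alternatives were RLE, upper-quartile, library size and secreted-protein scaling in edgeR, filterByExpr, no filter, DESeq2 1.42.0, the compared groups alone, a replicate block, 2 surrogate variables (sva 3.50.0) and leaving out each library.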

Additional observations from a re-analysis of the deposited data

Results flagged for a closer look

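Among 40 gene-by-group sets of 7 livers, 2 held a value far from the rest by Dixon's 95% criterion, and chance gives about 1 in 20. Cps1 in male WT livers was lowest in replicate 6, at 2169 CPM, against 3266 in the nearest liver. Glud1 in female SIRT6-tg livers was highest in replicate 5, at 1334 CPM, against 1125 in the nearest liver.

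For 3 genes the response to genotype differed between the sexes by the interaction test of edgeR, as log2 difference of male minus female response: Asl by 0.77, Arg1 by 0.69 and Gls2 by 0.71. Transgene level differs between the sexes, so its part and that of sex cannot be told apart.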

How the results depend on the processing

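The depth limits Arg2, Slc25a2 and other genes with few reads, not the 10 genes of the cycle. Calls in males depended on scaling: of the 10 genes, 5 were called with upper-quartile scaling and 0 with library size alone or scaling to secreted hepatocyte proteins, whose median log2 fold change of all genes was -0.22 and -0.27. Between 6 and 8 were called in the other alternatives and 7 or 8 when a library was left out. Of the 42 other genes, library size alone called 8, the secreted protein scaling 6 and 2 surrogate variables 25, beside 16, and leaving out a library gave 10 to 19. For the sex difference in response, both scalings called 0 of 10. Male against female WT had 1 call with the secreted proteins. Male against female SIRT6-tg had 1 call with those groups fitted alone. In females every alternative and every left-out library gave 0 calls. The cause of these differences was not tested.

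Signs reversed for log2 values that were small or lost with scaling. With the secreted proteins they were, in males, Cps1 -0.088, Nags -0.052, Slc25a15 -0.29 and Glud1 -0.018, in females Cps1 0.057, Asl 0.051 and Slc25a15 0.11, and for the sex difference in response Cps1 -0.14, Otc -0.11, Ass1 -0.10, Nags -0.20, Slc25a15 -0.40, Slc25a13 -0.18 and Glud1 -0.22. For male against female WT they were Cps1 0.057, Otc 0.040, Ass1 0.26, Asl 0.11, Slc25a15 0.15 and Slc25a13 0.16, and for the SIRT6-tg groups Cps1 -0.088, Otc -0.075 and Slc25a13 -0.012. With library size alone, males gave Cps1 -0.038 and Slc25a15 -0.24, the sex difference Nags -0.032, Slc25a15 -0.23, Slc25a13 -0.00088 and Glud1 -0.045, male against female WT Ass1 0.15, Slc25a15 0.058 and Slc25a13 0.065, and the SIRT6-tg groups Cps1 -0.013. Upper-quartile scaling gave Slc25a15 -0.035 in males and -0.0020 for the sex difference. Males fitted alone gave Slc25a15 -0.036, and 2 surrogate variables gave Asl 0.046 in females. When a library was left out, values crossing 0 ran from -0.010 to 0.082 for Slc25a15 in males, from -0.17 to 0.014 for Cps1, -0.034 to 0.11 for Ass1, -0.018 to 0.063 for Nags and -0.090 to 0.025 for Slc25a15 in females, from -0.097 to 0.043 for Ass1 between WT groups, from -0.0039 to 0.18 for Cps1 and -0.11 to 0.0081 for Slc25a15 between SIRT6-tg groups, and from -0.083 to 0.17 for the female ratio of Asl to Cps1. The male ratio of Asl to Cps1 was 0.58 (exact p = 0.0227) without male WT replicate 6, the low Cps1 liver. That pair was chosen after the values were seen, so this unadjusted p is a description.

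No pairing of the mice by replicate number was seen in the expression values. Among 42 pairs of same-numbered libraries the correlation of deviations from group means ran from -0.35 to 0.33, with a median of 0.035. The median was 0.0092 for different numbers, and 3 of 28 libraries correlated best with their own number. Such correlations cannot show that the mice were unpaired. A replicate block gave 8 calls among the 10 genes in males, 0 in females, 2 for the sex difference, without Asl, and 3 in each comparison of the sexes.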
